A study of Tupaia belangeri chinensis with 36 samples.

Results

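Among the genes that the annotation of the Chinese tree shrew (Tupaia belangeri chinensis) lists under a TSDBGID identifier, 65 of 21043 peaked in the cortical plate (CP) of the fetal cortex at both embryonic day 28 (E28) and embryonic day 42 (E42). A gene was taken when its mean level in the CP was at least 5 CPM (its count over the summed feature counts of the library, times 1000000) and at least 1.5 times its mean in each of the ventricular zone (VZ), the inner and outer subventricular zones (ISVZ and OSVZ), the intermediate zone (IZ) and the marginal zone (MZ), at both stages. Of the TSDBGID genes, 8480 reached 5 CPM in the CP at both stages and could have been taken. The genes were thus chosen by their E28 and E42 levels in the CP and the other layers, so those levels are given as a description. Tests that bear on them compared E37 libraries, which the choice did not use. The spread in these tests was estimated over all 35 libraries of the fit, those of E28 and E42 among them. The inner and outer plate of E42 entered the choice through their mean, so a gene could be taken through one of them alone, and differences between them at E42 are also given as a description. The files do not pair TSDBGID identifiers with gene symbols, and 0 of them were found in the RefSeq table of symbols, so the genes carry their identifiers only, what each gene does is not given, and the label of the genes as coding was not checked.

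The cortical plate is the layer in which newly born projection neurons settle after they have migrated from the ventricular side of the cortical wall. Neurons cross the IZ on their way, together with growing axons, and the MZ above the plate holds Cajal-Retzius cells and few other cell bodies. Later-born neurons pass the earlier ones and stop nearer the surface, so that the inner plate (CPi) holds older neurons than the outer plate (CPo).

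The layers were cut from stained frozen sections of fetal brain by laser capture microdissection, and polyadenylated RNA was sequenced. All animals were of one species, with no treatment and no altered genotype in the labels. From E28 came 12 libraries, a pair for every layer with the CP taken whole. From E37 came 10 libraries, namely 3 of IZ, a pair of MZ and 5 of the plate (1 cut whole, 2 of CPi, 2 of CPo). The germinal layers of E37 were not among the samples. From E42 came 13 libraries, a pair for every layer with the plate cut into CPi and CPo, but 1 for the VZ. The second VZ library of E42 held the same count as the second VZ library of E28 for all 76871 features and was left out. Which stage these shared counts belong to is not known. They were kept as an E28 library, so VZ values of E28 rest partly on them. The labels do not say whether libraries of one group came from separate animals, so p-values measure the spread between these libraries, and CPi and CPo libraries of one number may share an animal. The 35 libraries held between 17932690 and 102042743 counts on features, with a median of 31756620. Because each library is a bulk sample, fewer cells of a type and less RNA per cell cannot be told apart.

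At E28 and E42 the median of the 65 genes was lowest in the germinal layers and highest in the CP, the latter as the choice required. The median gene stood at 105 CPM in the CP of E28 and at 110 CPM in the CP of E42. In the VZ of E28 the median gene stood at 5.77 CPM and in the ISVZ at 14.1 CPM. At E42 the germinal medians were higher and not in the order of the layers. They were 17.0 CPM in the 1 VZ library, 27.9 CPM in the ISVZ and 23.7 CPM in the OSVZ. The VZ was the lowest layer for 45 of the 65 genes at E28 and for 39 at E42. The layers next to the plate came closest. The MZ was second to the CP for 42 genes at E28, whereas the IZ was second for 47 genes at E42. Together the 65 genes took 1.48% to 1.82% of the counts in CP libraries of E28 and 1.51% to 1.73% in plate libraries of E42, against 0.221% to 0.254% in VZ libraries of E28. The plot of levels by layer shows these levels in each library.

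**Figure D1:**
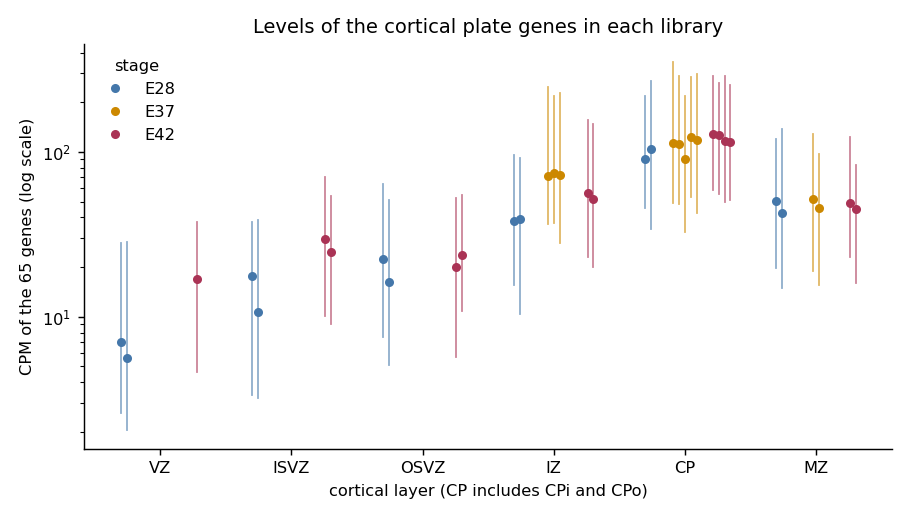
CPM of the 65 cortical plate genes (log scale) in each layer, with 1 point per library at the median gene and a line from the lower to the upper quartile of the genes; colours mark the stage. Library medians run from 5.64 CPM in the VZ of E28 to 128 CPM in the plate of E42, and at E37 the IZ libraries (71.4 to 74.4 CPM) lie between the MZ libraries (45.6 to 51.7 CPM) and the plate libraries (91.2 to 123 CPM).

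Many of the 65 genes lay close to the limit of the choice. The ratio of the CP to its closest layer had a median of 1.78 at E28 (1.503 to 3.91) and of 1.98 at E42 (1.51 to 5.28). In 19 genes the smaller of both ratios was under 1.6, in 15 genes both ratios reached 2, and in 4 genes both reached 3. Just inside the limit were TSDBGID.21780 and TSDBGID.23667, with smaller ratios of 1.503 and 1.506, and just outside were TSDBGID.7250 and TSDBGID.16765, with 1.497 and 1.496. On the level, TSDBGID.23990 was lowest inside at 8.05 CPM and TSDBGID.4627 was nearest outside at 4.26 CPM. Membership also moved with single libraries. The second CP library of E28 was above the first for 42 of the 65 genes (median ratio 1.22), and for 4080 of 8474 expressed TSDBGID genes (median ratio 0.985). Without the first CP library of E28 the same limits took 89 genes, 54 of them among the 65, and without the second they took 51 genes, 38 of them among the 65. With CPM scaled by TMM factors (0.881 to 1.13) in place of the total count, they took 131 genes, with all 65 among them. When each of 24 libraries was left out in turn, 21 genes were taken every time.

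The most abundant of these genes over the 11 plate libraries were TSDBGID.13690 and TSDBGID.6493. TSDBGID.13690 was at 1841 and 2790 CPM in CP libraries of E28, at 1125 and 1358 CPM in the IZ, and at 706 and 1375 CPM in the MZ. At E42 it was at 1401 and 1270 CPM in CPi and at 1473 and 1321 CPM in CPo, against 915 and 753 CPM in the IZ and 532 and 448 CPM in the MZ. Thus its plate libraries did not overlap with those of IZ or MZ at either stage, although it was also abundant in the VZ of E28, at 384 CPM in both libraries. TSDBGID.6493 had a sharper contrast with the germinal layers, at 105 and 146 CPM in the VZ of E28 and at 729 and 1024 CPM in the CP. In E42 plate libraries it reached 1572 and 1501 CPM in CPi and 1342 and 1450 CPM in CPo, and its 2 IZ libraries were at 554 and 592 CPM.

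At E37, a stage that played no part in the choice, the 65 genes were again higher in the plate than in the MZ, and fewer of them were higher than in the IZ. The question here is whether genes that peak in the plate before and after E37 also stand above the IZ and the MZ at E37. A peak over all layers cannot be asked, because the germinal layers of E37 were not among the samples. In the contrast of the 5 plate libraries with the 2 MZ libraries, 51 of 65 genes were called higher in the plate and 0 lower. Of all 26858 features tested, 8.42% were called higher and 10.3% lower, and of the 8480 TSDBGID genes expressed in the plate (5 CPM or more at E28 and E42), 23.6% higher and 10.2% lower. The log2 fold change over the MZ was above 0 in 65 of 65 genes, with a median of 1.34 (0.48 to 3.07). Over the expressed TSDBGID genes it was above 0 in 5419 of 8480, with a median of 0.21. For 57 of the 65 genes each plate library lay above each MZ library, which held for 12.9% of all features tested and for 28.3% of the expressed TSDBGID genes. These calls rest on edgeR's quasi-likelihood test with Benjamini-Hochberg adjustment over all features, two-sided, at 0.05. The model held no term for the replicate number, so CPi and CPo libraries of one number were counted as separate plate libraries. Without MZ replicate 3, which left 1 MZ library assumed to vary like the other groups, fewer of the 65 genes and fewer of all features were called higher.

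Against the 3 IZ libraries of E37, 14 of 65 genes were called higher in the plate and 0 lower. Of all features tested, 1.25% were called higher and 2.6% lower, and of the expressed TSDBGID genes 3.37% higher and 2.17% lower. After TMM normalisation, the log2 fold change was above 0 in 62 of 65 genes, with a median of 0.57 (-0.44 to 2.56). The median was -0.03 over all features tested and 0.12 over the expressed TSDBGID genes, of which 5687 of 8480 were above 0. All 14 genes called over the IZ were also called over the MZ, which held for 0.808% of all features tested and 2.39% of the expressed TSDBGID genes, and these counts share their plate libraries. In 17 genes each plate library lay above each IZ library, which held for 2.21% of all features tested and 4.55% of the expressed TSDBGID genes. The 51 genes not called over the IZ had log2 fold changes from -0.44 to 1.42 with a median standard error of 0.30. Measured as a ratio of mean CPM, 20 genes reached 1.5 over the IZ (14.8% of all features tested and 1.93% of the expressed TSDBGID genes), 62 reached it over the MZ (27% and 17.2%) and 19 reached it over both (7.55% and 1.38%). The median ratio was 1.31 over the IZ and 2.31 over the MZ. Because the choice imposed the ratio of 1.5 at E28 and E42 and not at E37, ratios at E37 are not set against those of the other stages.

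The number of genes called over the IZ depended on the model more than the number over the MZ. Deviations from the group means at E37 were correlated between libraries of one replicate number, and a model that took this number as a block called 28 genes over the IZ (4.46% of all features tested), 55 over the MZ (11%) and 27 over both (2.93%). With libraries scaled to their total count in place of TMM normalisation, which moved the median of all features to -0.22 for the IZ, 8 genes were called over the IZ and 45 over the MZ. All features tested then split into 115 higher and 1091 lower in the plate than in the IZ, against 335 and 698 under TMM, whereas the 65 genes had 0 lower calls either way. Over the MZ, 1549 of all features were called higher on the total count, against 2262 under TMM. Without IZ replicates 1, 2 or 3 the count over the IZ was 9, 9 or 7, and that over all features 120, 203 or 75, against 335 with all libraries.

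**Figure D2:**
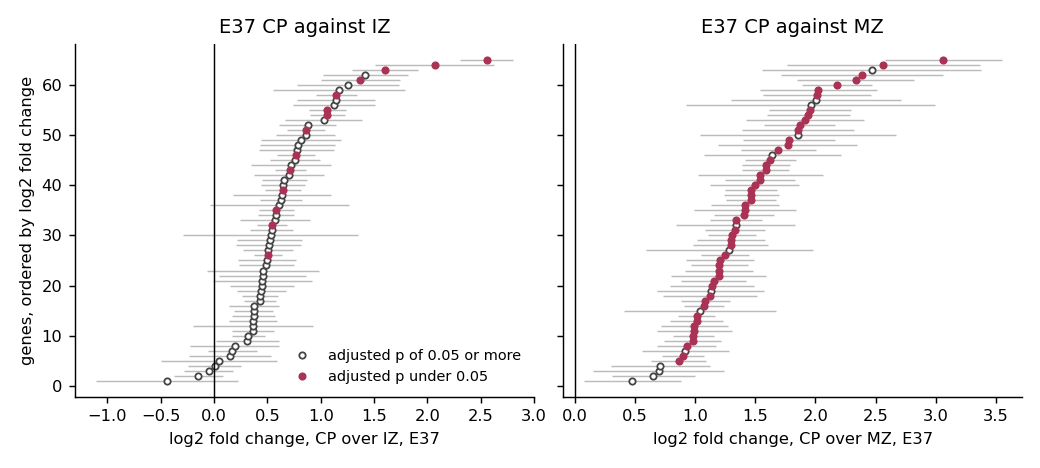
Log2 fold change of each of the 65 genes at E37 between the plate and the IZ (left) and between the plate and the MZ (right), ordered within each panel, with a line of 1 standard error to each side; filled points passed an adjusted p of 0.05 in edgeR's quasi-likelihood test. Filled points number 14 in the left panel and 51 in the right, and 3 genes in the left panel lie below 0.

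The largest differences at E37 among genes called over both layers, with at least 20 CPM in the plate, belonged to TSDBGID.4291 and TSDBGID.13489. TSDBGID.4291 was at 78.6 CPM in the undivided CP, at 54.5 and 123 CPM in CPi and at 99.8 and 164 CPM in CPo. It was at 22.3, 17.3 and 18.9 CPM in IZ libraries and at 23.1 and 25.7 CPM in MZ libraries, so that the lowest plate library stood above each of those 5. Its log2 fold change was 2.56 ± 0.25 (SE) over the IZ, with an adjusted p of 3.75e-07 in edgeR's quasi-likelihood test, and 2.18 ± 0.29 over the MZ, with an adjusted p of 4.37e-06. This gene was unusual in its other layers, since its closest layer at E28 was not a neighbour of the plate but the VZ, at 46.8 and 39.1 CPM against 60.4 and 80.4 CPM in the CP. In the ISVZ of E28 it was at 37.6 and 45.8 CPM, in the OSVZ at 15.1 and 8.67 CPM and in the IZ at 8.82 and 11.2 CPM. At E28 TSDBGID.4291 thus had a high level in the plate, a lower one in the VZ and ISVZ and its lowest levels in the OSVZ and IZ between them.

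TSDBGID.13489 was at 385 CPM in the undivided CP of E37, at 290 and 201 CPM in CPi and at 265 and 184 CPM in CPo. Its IZ libraries were at 54.1, 103 and 55.5 CPM and its MZ libraries at 63.6 and 45.6 CPM, all below its plate libraries. The log2 fold change was 2.07 ± 0.56 (SE) over the IZ, with an adjusted p of 0.0464 in edgeR's quasi-likelihood test, and 2.39 ± 0.67 over the MZ, with an adjusted p of 0.0184. Over 19 alternatives the first adjusted p ran from 6.28e-04 to 0.229 and passed in 5, and it did not pass with single libraries left out, for example at 0.229 without IZ replicate 3 and 0.083 without the undivided CP library. The second ran from 1.65e-04 to 0.208 and did not pass without MZ replicate 2 (0.063) or MZ replicate 3 (0.208). Its replicates at E28 stood far apart, at 84.2 and 479 CPM in the CP and at 35.5 and 209 CPM in the MZ.

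The same test was read for both of the most abundant genes at E37. TSDBGID.6493 was at 1196 CPM in the undivided CP, at 1212 and 1358 CPM in CPi, at 1119 and 1581 CPM in CPo, at 663, 844 and 611 CPM in the IZ and at 495 and 446 CPM in the MZ. Its plate libraries were separated from those of both other layers, with a log2 fold change of 1.06 ± 0.16 (SE) over the IZ (adjusted p of 1.18e-04, edgeR) and of 1.59 ± 0.20 over the MZ (adjusted p of 1.18e-06). TSDBGID.13690 lay closer to its IZ level, at 1107 CPM in the undivided CP, 1078 and 1384 CPM in CPi and 1063 and 1435 CPM in CPo, against 943, 827 and 1003 CPM in the IZ. Its log2 fold change over the IZ was 0.58 ± 0.16 (SE), with an adjusted p of 0.0402 in edgeR that ran from 7.64e-04 to 0.207 over 19 alternatives and passed in 7 of them. Without IZ replicates 1, 2 or 3 it was 0.114, 0.194 or 0.160, and without CPo replicate 3 it was 0.106. Over the MZ, where it was at 580 and 495 CPM, its log2 fold change was 1.30 ± 0.20 (SE), with an adjusted p of 2.34e-05 in edgeR.

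**Figure D3:**
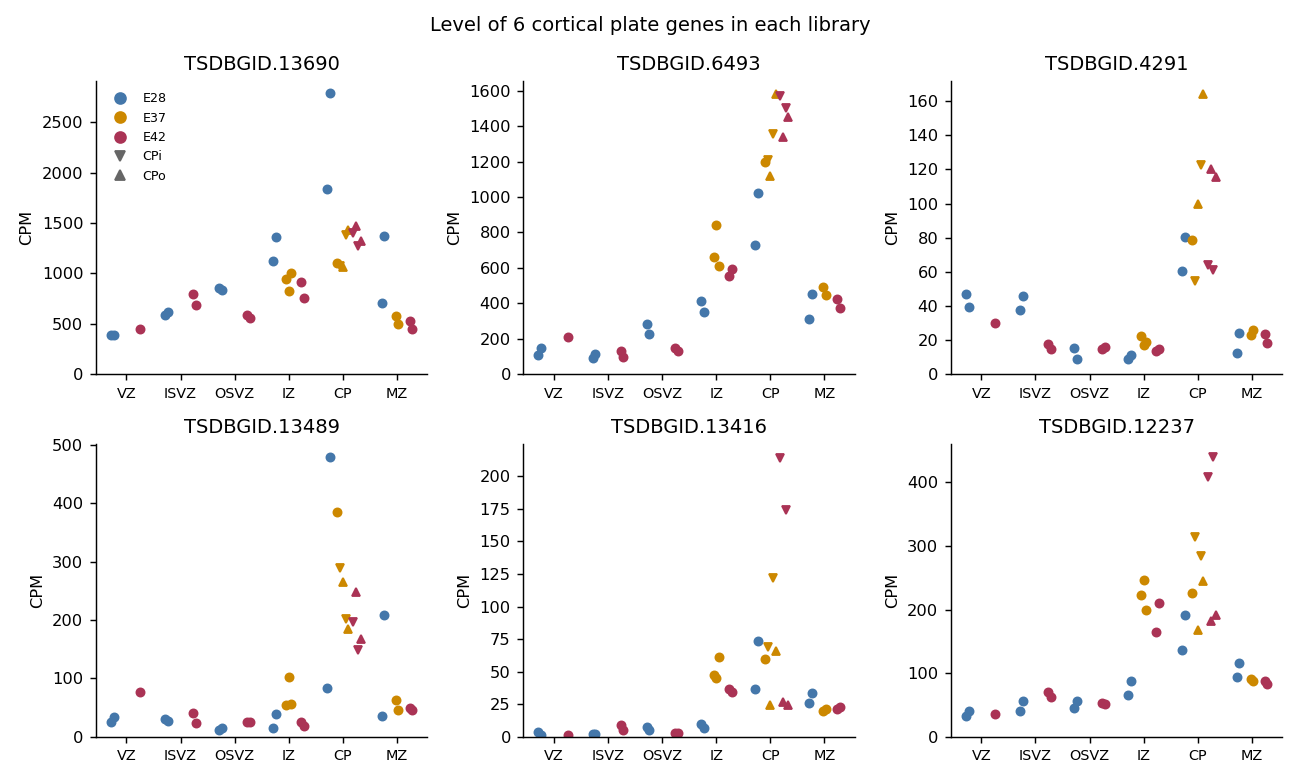
CPM of 6 of the cortical plate genes in each library, by layer on the horizontal axis and with colours for the stage; downward triangles are CPi libraries and upward triangles CPo libraries. TSDBGID.4291 ranges from 54.5 to 164 CPM in plate libraries of E37 against 17.3 to 22.3 CPM in the IZ, and TSDBGID.13416 separates into 174 and 214 CPM in CPi and 24.7 and 26.6 CPM in CPo at E42.

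In 3 genes, singled out after their values were seen, the log2 fold change over the IZ at E37 lay below 0. TSDBGID.12580 was at 207 CPM in the undivided CP, at 229 and 295 CPM in CPi and at 137 and 252 CPM in CPo, against 248, 251 and 346 CPM in the IZ. The libraries of both layers overlapped, and the log2 fold change was -0.15 ± 0.23 (SE) with an adjusted p of 0.853 in edgeR, although the same gene was at 97.3 and 69.6 CPM in the MZ and was called higher in the plate than there (1.54 ± 0.29, adjusted p of 4.95e-04). TSDBGID.14857 was at 195 CPM in the undivided CP, 164 and 225 CPM in CPi and 217 and 144 CPM in CPo, and at 258, 147 and 267 CPM in the IZ. Its log2 fold change over the IZ was -0.05 ± 0.23 (SE), with a sign that turned under 4 of 19 alternatives (up to 0.06), so no direction is given for it. Over the MZ it was 0.99 ± 0.28 (SE), with an adjusted p of 0.0143 in edgeR that was 0.0669 with the replicate block and 0.268 without MZ replicate 3. TSDBGID.6685 varied most within the IZ, at 32.7, 5.98 and 64.3 CPM, and replicate 3 was also its highest library within CPi (17.9 and 68.8 CPM) and CPo (8.05 and 21.3 CPM). Its log2 fold change over the IZ was -0.44 ± 0.67 (SE), and 0.29 without IZ replicate 3. The choice of the genes used CPM without TMM. On mean CPM the E37 plate also lay below the IZ in TSDBGID.6664 (43.6 against 45.9) and TSDBGID.27453 (25.6 against 27.5). The same held for TSDBGID.25137 (211 against 215) and TSDBGID.25936 (41.3 against 41.7). After TMM normalisation, the log2 fold changes of the genes just named lay above 0.

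The level of these genes in the IZ was higher at E37 than at either other stage. The median of the 65 genes in the IZ was 38.2 CPM at E28, 76.5 CPM at E37 and 54.6 CPM at E42. In the IZ, 49 genes were at least 1.5 times as high at E37 as at E28, whereas 2 genes were as much lower. Of the 8480 expressed TSDBGID genes, 1385 were as much higher and 853 as much lower. At E42 the IZ mean was above that of E37 in 4 genes (4219 of 8480). In 29 genes it was lower by at least the same factor (429 of 8480). Over the 8480 expressed TSDBGID genes the median ratio in the IZ was 1.02 from E28 to E37 and 0.999 from E37 to E42, whereas over the 65 genes it was 2.03 and 0.702. In the MZ the medians were 55.4, 51.1 and 48.5 CPM. The IZ was accordingly above the MZ for 21 of the 65 genes at E28, for 61 at E37 and for 49 at E42, with no count made over other genes. These stage differences share libraries with the choice of the genes, which held their IZ and MZ levels down at E28 and E42 and not at E37, so they were not tested.

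TSDBGID.12237 had this course in the IZ, with 65.3 and 88.0 CPM at E28, 222, 246 and 200 CPM at E37, and 164 and 211 CPM at E42. Its plate libraries were at 137 and 191 CPM at E28 and at 168 to 314 CPM at E37, so that at E37 both layers overlapped. Its log2 fold change over the IZ was 0.32 ± 0.15 (SE), with an adjusted p of 0.288 in edgeR. TSDBGID.13416 was at 9.83 and 7.06 CPM in the IZ of E28, at 47.6, 45.5 and 61.1 CPM at E37 and at 36.7 and 34.1 CPM at E42, and its plate libraries of E37 ranged from 24.5 to 122 CPM. It too was not called over the IZ at E37 (0.51 ± 0.31 (SE), adjusted p of 0.427 in edgeR), and both genes were called over the MZ, with log2 fold changes of 1.58 and 1.78.

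Within the plate itself, the 65 genes did not share one course from E28 to E42. The mean in the plate was at least 1.5 times as high at E42 as at E28 in 23 genes (32.8% of all features tested, and 15.4% of the expressed TSDBGID genes), at least 1.5 times as high at E28 in 11 genes (25.1% and 15.5%) and within 1.5-fold in 31. At both steps, from E28 to E37 and from E37 to E42, the mean was higher at the later stage in 23 genes and lower in 12, and it was highest at E37 in 15 and lowest at E37 in 15. Of the 8480 expressed TSDBGID genes, 1934 were higher at each later stage and 2385 lower, and 1951 were highest and 2210 lowest at E37. The 11 genes that were higher at E28 had a median of 356 CPM there, against 47.2 CPM for the 23 that were higher at E42. Grouping by the ratio of these stages itself favours the 11 genes at E28. The medians of the 11 and the 23 genes were 189 and 79.5 CPM at E37, and 155 and 100 CPM at E42. These are descriptions, and the levels of E28 and E42 entered the choice.

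**Figure D4:**
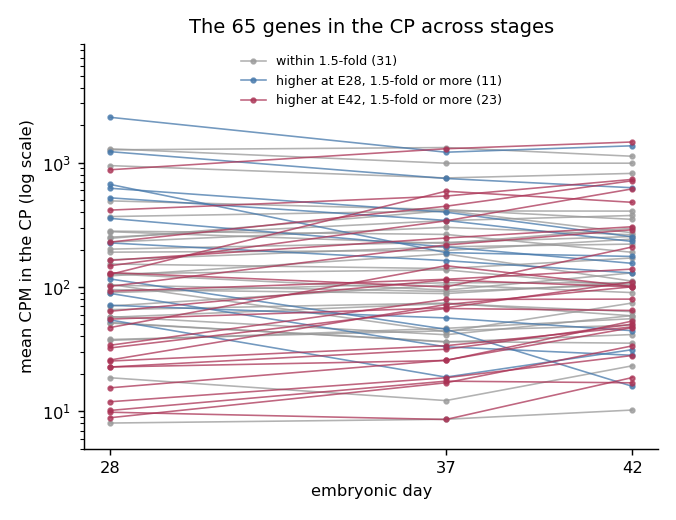
Mean CPM in the plate (log scale) of each of the 65 genes at embryonic days 28, 37 and 42, with 1 line per gene. Red lines are the 23 genes at least 1.5 times as high at E42, blue lines the 11 at least 1.5 times as high at E28, and grey lines the other 31.

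The ends of this range, singled out after their values were seen, were TSDBGID.6173 and TSDBGID.20931. TSDBGID.6173 was at 155 and 142 CPM in the CP of E28, at 391 CPM in the undivided CP, 309 and 286 CPM in CPi and 371 and 345 CPM in CPo at E37, and at 593 and 502 CPM in CPi and 715 and 652 CPM in CPo at E42. Its plate libraries of the 3 stages did not overlap, its mean at E42 was 4.15 times that at E28, and it was nearly absent from the VZ of E28, at 1.43 and 1.59 CPM. At E37 it was at 174, 171 and 101 CPM in the IZ and at 111 and 73.8 CPM in the MZ, with log2 fold changes of 1.37 ± 0.37 (SE) over the IZ (adjusted p of 0.0436, edgeR) and of 2.01 ± 0.45 over the MZ (adjusted p of 0.0036). The first ran from 0.00258 to 0.268 over 19 alternatives, passing in 5, and was 0.268 without IZ replicate 3. The second was 0.109 without MZ replicate 3.

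TSDBGID.20931 went the other way, with 174 and 58.4 CPM in the CP of E28. At E37 it was at 55.6 CPM in the undivided CP, 70.6 and 50.1 CPM in CPi and 20.3 and 32.1 CPM in CPo. At E42 it was at 40.0 and 18.2 CPM in CPi and at 4.35 and 1.13 CPM in CPo, so that its mean of 15.9 CPM in the plate of E42 came mostly from the inner plate. It had large spread within groups, and neither its log2 fold change over the IZ at E37 (0.53 ± 0.82 (SE)) nor that over the MZ (1.96 ± 1.04) was called, with adjusted p of 0.856 and 0.217 in edgeR.

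The inner and outer plate were compared to ask whether genes that mark the plate as a whole are spread evenly over its depth. At E37, 0 genes were called in either direction in edgeR and 0 in the DESeq2 Wald test (0.0186% of all features tested higher and 0% lower, and 0.059% and 0% of the expressed TSDBGID genes), with 4 at an unadjusted p under 0.05 (221 of the 8480 expressed TSDBGID genes) and 59 within 1.5-fold (8134 of 8480). Neither test took the replicate number as a pairing, although deviations of CPi and CPo at E37 correlated at 0.27 by that number. The 0 calls thus come from unpaired tests and do not show an even spread. At E42, 2 genes were past the threshold of the same model towards CPi (0.465% of all features tested and 1.13% of the expressed TSDBGID genes) and 0 towards CPo (0.19% and 0.495%), and 49 genes lay within 1.5-fold (7578 of 8480). Because the E42 libraries of CPi and CPo were averaged in the choice of the genes, this count is not independent of the choice and nothing is read from it. It was 1 without CPo replicate 1, 1 without CPi replicate 2 and 0 without CPo replicate 2, in fits where the lone library was assumed to vary like the other groups.

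TSDBGID.13416 met the limits of the choice at E42 only through the inner plate. It was then at 214 and 174 CPM in CPi and at 26.6 and 24.7 CPM in CPo, and its outer plate was below the IZ, at 36.7 and 34.1 CPM. The log2 fold change of CPi over CPo was 2.92 ± 0.44 (SE). At E37 its CPi libraries were at 68.8 and 122 CPM and its CPo libraries at 24.5 and 65.6 CPM. That difference was 1.01 ± 0.42 (SE) on the log2 scale, with an adjusted p of 1.00 in edgeR and an unadjusted p of 0.0235 in the same fit.

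TSDBGID.12237 was at 409 and 440 CPM in CPi and at 181 and 191 CPM in CPo at E42, a log2 fold change of 1.19 ± 0.21 (SE). Its CPo libraries lay between those of the IZ of that stage, at 164 and 211 CPM, so it too met the limits through the inner plate only. At E37 it was at 314 and 284 CPM in CPi and 168 and 246 CPM in CPo, and the difference of 0.48 ± 0.21 (SE) on the log2 scale had an adjusted p of 1.00 in edgeR.

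TSDBGID.4291 was lower in the inner than in the outer plate at E42 in each library. At E42 it was at 63.8 and 61.0 CPM in CPi and at 120 and 115 CPM in CPo, with a log2 fold change of CPi over CPo of -0.92 ± 0.30 (SE). At E37 the log2 fold change was -0.65 ± 0.30 (SE), and its CPi and CPo libraries overlapped. Within each replicate number of E37, CPi was below CPo, at 54.5 against 99.8 CPM and at 123 against 164 CPM. The difference was called at neither stage in edgeR, without a pairing.

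Over the 65 genes the log2 fold changes of CPi over CPo at E37 and at E42, which share no library, had a Pearson correlation of 0.73 and a Spearman correlation of 0.73, and 49 genes had the same sign. Over the 8480 expressed TSDBGID genes the correlations were 0.66 and 0.51, with 5804 of the same sign. These are correlations across genes, which are not independent replicates, and each point is a difference within 1 stage between 2 and 2 libraries. The test of whether the difference itself changed between stages called 0 of the 65 genes in edgeR and 0 in the DESeq2 Wald test, and in edgeR 0 of all 26858 features (0%), with 3 of the 65 at an unadjusted p under 0.05 (152 of the 8480 expressed TSDBGID genes). This test uses the E42 plate libraries that were averaged in the choice.

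**Figure D5:**
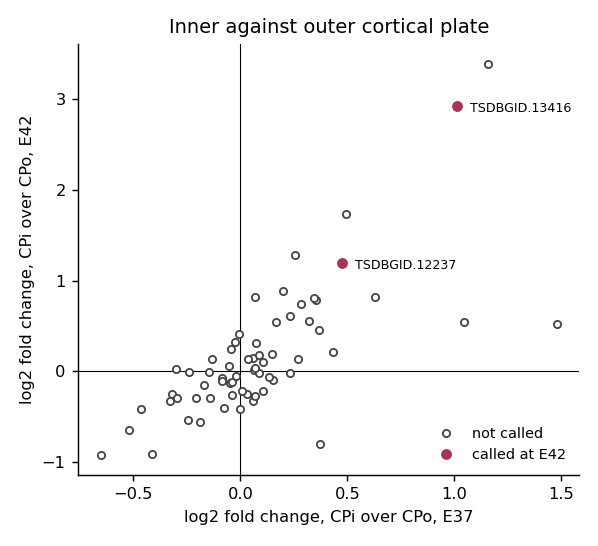
Log2 fold change of CPi over CPo at E37 (horizontal axis) and at E42 (vertical axis) for the 65 genes, with 1 point per gene; filled points, marked as called at E42, are TSDBGID.13416 and TSDBGID.12237, the 2 genes past an adjusted p of 0.05 there, with libraries that also entered the choice of the genes. At E37 the differences run from -0.65 to 1.48 and at E42 from -0.92 to 3.39.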

How the data were processed

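Each library was made from one cortical layer of fetal Chinese tree shrew cut by laser capture microdissection. The authors deposited integer read counts per annotated feature, not normalized, made with HISAT2, SAMtools and HTSeq per the submitters' processing notes; the annotation was TS_3.0. Libraries were grouped by layer and stage from their labels. The genes, the gene lists and the tests were chosen with earlier results of these data known. CPM was the count over the sum of feature counts, times 1000000. Counts of 35 libraries were fitted in edgeR 4.0.16 (R 4.3.3) with TMM normalisation, 18 groups of layer and stage, 17 residual degrees of freedom and filterByExpr (minimum count 10), which left 26858 features, 15911 of them TSDBGID genes and all 65 plate genes among these. Contrasts used the robust quasi-likelihood test, two-sided, with Benjamini-Hochberg adjustment over all features and a threshold of 0.05. The 5 plate libraries of E37 were weighted alike. The sources name no molecular identifiers, so PCR copies may be among the counts. Lists of cell type markers could not be applied without symbols.

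Genes were named by rule: the 2 most abundant plate genes, the 2 with the largest smaller difference among those called over IZ and MZ at E37 with at least 20 CPM, the 2 most negative among those called lower (there were none), and the 2 largest in each direction among those called between CPi and CPo. Deviations from group means correlated above 0.1 between libraries of one number in 6 of 6 pairs of layers at E37 (0.129 to 0.273). From these values alone, the number was taken to pair the E37 libraries. The main model left the number out, so its calls are unpaired, and only the replicate block used it. At E28 the correlation was above 0.1 in 15 of 15 pairs (0.168 to 0.265) and at E42 in 10 of 15 (-0.117 to 0.232). Each E42 pair that fell short included the OSVZ, and CPi with CPo stood at 0.181. E42 libraries were all the same not taken as paired, so CPi and CPo of E42 were compared without a pairing that these values show. The count of genes higher in CPi at E42 with the replicate block is given below. The alternatives were the DESeq2 1.42.0 Wald test, its size factors in edgeR, no filter, all 36 libraries, the replicate block, the plate of E37 as 1 group or as CPi and CPo only, a model of only the groups compared, an absolute log2 fold change above 1, single libraries left out, and other limits for the choice of genes. Scaling to the total count was added after the data were seen. Python 3.11.15 and matplotlib 3.10.9 drew the figures.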

Additional observations from a re-analysis of the deposited data

How the results depend on the processing

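No gene among the 65 was called lower in the plate than in the IZ or the MZ at E37 in any alternative run. The count over the IZ (14) was 7 with an absolute log2 fold change above 1, 8 with DESeq2's size factors or without TMM, 9 with all 36 libraries and 28 with the replicate block, and 7 to 16 with single libraries left out; the count over both IZ and MZ (14) was 7, 8, 8, 8 and 27 in the same order, and 7 to 16 with single libraries left out. DESeq2 called 16 over the IZ and no filter 21. Of all features tested, 335 were called higher over the IZ. In the same order the alternatives called 87, 180, 115, 171 and 1197 of all features, DESeq2 352, and no filter 369 of 54801. Over the MZ, the alternatives that left out no library called 750 to 2953 of all features higher, against 2262. The count over the MZ (51) was 42 to 56 in the alternatives that left out no library and 24 to 51 with single libraries left out, with 24 without MZ replicate 3. The count higher in CPi at E42 (2), which is not independent of the choice of genes, was 4 with no filter, 9 with only the groups compared (809 of 17103 features) and 0 to 2 with single libraries left out, and that higher in CPo (0) was 1, 4 (334 features) and 0. With the replicate block, which is not taken as a pairing at E42, 3 genes were called higher in CPi. Without the filter, the change of the CPi to CPo difference between stages was called in 1 gene, TSDBGID.13416 (log2 difference 1.89), with the same E42 libraries in the fit.

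The choice of the 65 genes gave 15 genes with a ratio of at least 2, 62 with at least 10 CPM, 67 with the repeated VZ library, 131 with TMM-scaled CPM and 51 to 89 with single libraries left out. The log2 fold change over the IZ of TSDBGID.14857 turned to 0.017 with the replicate block and ran from -0.30 to 0.064 with single libraries left out, above 0 without IZ replicate 1 or 3 or CPo replicate 3, and that of TSDBGID.6685 ran from -0.97 to 0.29, above 0 without IZ replicate 3. Over all alternatives of single named genes, 357 kept their side of the threshold, 50 lost the call, 4 gained it and 5 turned sign; the block moved the count over the MZ to 55, and of the single genes named for E37 it changed the call of TSDBGID.14857 over the MZ. The causes were not tested. Most groups held 2 libraries, and the 1 VZ library of E42 gives no spread.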

Other observations

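Outside the TSDBGID genes, 4 of 55828 other features met the same limits on level and ratio in the plate at E28 and E42, and they were named after their values were seen. They were VLDLR-AS-2, NELL2-AS-2 and GFRA1-AS-1, named as antisense transcripts, and LINC-SLC2A12-2, named as an intergenic transcript. The library kit is not stated to keep strand, so reads of an antisense transcript and of an overlapping gene cannot be told apart. VLDLR-AS-2 was the most abundant, with a mean of 97.9 CPM in the CP of E28 (n = 2), 48.8 ± 13.5 CPM (SD, n = 5) in the plate of E37 and 45.7 ± 5.01 CPM (SD, n = 4) in that of E42. At E37 it was called higher in the plate than in the MZ (log2 fold change 1.31 ± 0.21 (SE), adjusted p of 4.35e-05 in edgeR) and not than in the IZ (0.11 ± 0.17 (SE), adjusted p of 0.857), where it was at 50.2 ± 5.19 CPM (SD, n = 3). LINC-SLC2A12-2, at 7.86 ± 1.99 CPM (SD, n = 5) in the plate of E37, was also called over the MZ (1.80 ± 0.51 (SE), adjusted p of 0.0115 in edgeR) and not over the IZ (0.65 ± 0.40 (SE), adjusted p of 0.438). NELL2-AS-2 and GFRA1-AS-1 were called over neither layer, with log2 fold changes over the MZ of 1.43 ± 0.64 and 1.6 ± 0.63 (SE) and adjusted p of 0.132 and 0.0773 in edgeR. NELL2-AS-2 was at 18.3 and 47.9 CPM in the CP of E28, against 9.60 ± 1.12 CPM (SD, n = 5) in the plate of E37.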
